A study of Danio rerio with 6 samples.

Results

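The 483 regions described here were the tallest compact stretches of open chromatin in zebrafish embryos at 50% epiboly (5.5 hpf). They were selected by their ATAC-seq height, out of 85003 regions obtained by merging the peaks of 6 samples wherever peaks shared at least 1 base. A member had a peak in all 6 lists, a height of at least 15 in each of them, and no peak of 500 bases or more, on chromosomes 1 to 25 without chromosome 4 from position 27000000 on. Height is the coverage, in fragments, at the summit of the tallest peak, scaled to a library of 1000000 fragments. The members made up 1.61% of the 30071 regions that held a peak in every list, called shared regions from here on. Later values for shared regions, outside the fits, cover the 29225 of them on the same chromosomes, members included. Another 13 regions on the same chromosomes were as tall but held a longer peak. With peaks of any length, 8 regions as tall lay on the excluded part of chromosome 4 and 23 on unplaced scaffolds. With the length limit kept, including both places gave 505 members.

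The exposed embryos were AB wild type, kept from about the 2-cell stage in 5 μM PF-06726304 acetate (Ezh2i), and their controls were AB wild type embryos kept in 0.05% DMSO. Each exposure was represented by 3 samples of pooled whole embryos. The p-values rest on the spread between these samples, which the fits draw towards a variance shared across regions. All 6 samples are early gastrulae without a sorted cell type, so a region open in fewer cells and one less open per cell cannot be told apart. The libraries held between 5894731 and 6877909 fragments, so the threshold of 15 stood for 88.4 fragments over a single base in the smallest library and 103 in the largest.

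In ATAC-seq the transposase Tn5 inserts sequencing adapters where DNA is not wrapped around nucleosomes. A tall peak of limited length marks a stretch that is accessible in much of the sampled chromatin. Such peaks are known at active promoters, at enhancers and at binding sites of architectural proteins, and can also come from repeated sequence that is collapsed in an assembly. Ezh2 is the catalytic subunit of Polycomb repressive complex 2 and methylates lysine 27 of histone H3, a mark of repressed genes. An annotation or a sequence of GRCz11, the build of the files, was not used here. The members are therefore given by position, with no gene or sequence, and their origin was not tested.

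Ranked by the lowest of its 6 heights, the tallest region lay on chromosome 2 from 14676090 to 14676300. Its height was 71.8, 82.7 and 68.1 in Ezh2i samples 1, 2 and 3, against 81.9, 85.2 and 66.9 in controls 1, 2 and 3. These stood for 439 to 526 fragments over the summit base in the Ezh2i samples and 460 to 547 in the controls. The exposures overlapped, with the highest and the lowest value both among the controls. Its fold enrichment over the local background, a median of 92.6, was the highest of all shared regions on the same chromosomes.

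The next 2 regions in this ranking lay close together at the start of chromosome 7. From 5671 to 5890 the height was 76.0, 44.8 and 54.3 in Ezh2i samples, against 69.7, 78.0 and 54.1 in controls. From 7607 to 7802 it was 65.4, 43.2 and 46.9 in Ezh2i samples, against 75.5, 70.1 and 48.4 in controls. In both regions Ezh2i samples 2 and 3 and control 3 were low and the other 3 libraries were high. This stretch held 4 members within 2780 bases, the others from 7981 to 8165 and from 8305 to 8450. At the last of them the height was 32.3, 21.4 and 20.5 in Ezh2i samples, against 32.7, 41.7 and 24.0 in controls. At each of these 4 regions the summits of the 6 lists fell within 1 or 2 bases of each other. Their local background, the coverage the peak caller expected there, was 12.8 to 13.8 fragments, where the median member had 2.93. Such a background can hold fragments of the neighbouring members.

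Chromosome 5 held 3 of the 10 tallest regions. From 2721637 to 2721962 the height was 49.5, 39.3 and 52.4 in Ezh2i samples, against 49.5, 53.1 and 37.2 in controls, and the summit was called at the same base in all 6 lists. From 2810281 to 2810671 it was 54.8, 41.3 and 56.0 in Ezh2i samples, against 58.4, 51.7 and 36.1 in controls. From 826414 to 826666 it was 42.6, 31.3 and 40.7 in Ezh2i samples, against 64.5, 43.1 and 37.2 in controls. In each of the 3 regions Ezh2i sample 2 and control 3 were the lowest of their groups. The region from 826414 also had the second highest fold enrichment among the members, a median of 87.4, over a background of 2.04 fragments.

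The other tall regions showed more than one order of the samples. On chromosome 23 from 45769845 to 45770126 the height was 37.8, 31.6 and 39.1 in Ezh2i samples, against 45.6, 41.3 and 33.3 in controls. On chromosome 7 from 12065604 to 12065857 it was 37.3, 30.3 and 34.0 in Ezh2i samples, against 34.3, 32.7 and 29.8 in controls. These 2 followed the order seen on chromosome 5. On chromosome 20 from 4608800 to 4609101 the height was instead 36.4, 52.5 and 31.2 in Ezh2i samples, against 42.2, 46.9 and 44.1 in controls. On chromosome 17 from 53383514 to 53383783 it was 30.9, 47.5 and 32.7 in Ezh2i samples, against 39.9, 48.3 and 50.6 in controls. Here Ezh2i sample 2 was the highest of its group, and control 3 was not low.

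**Figure D1:**
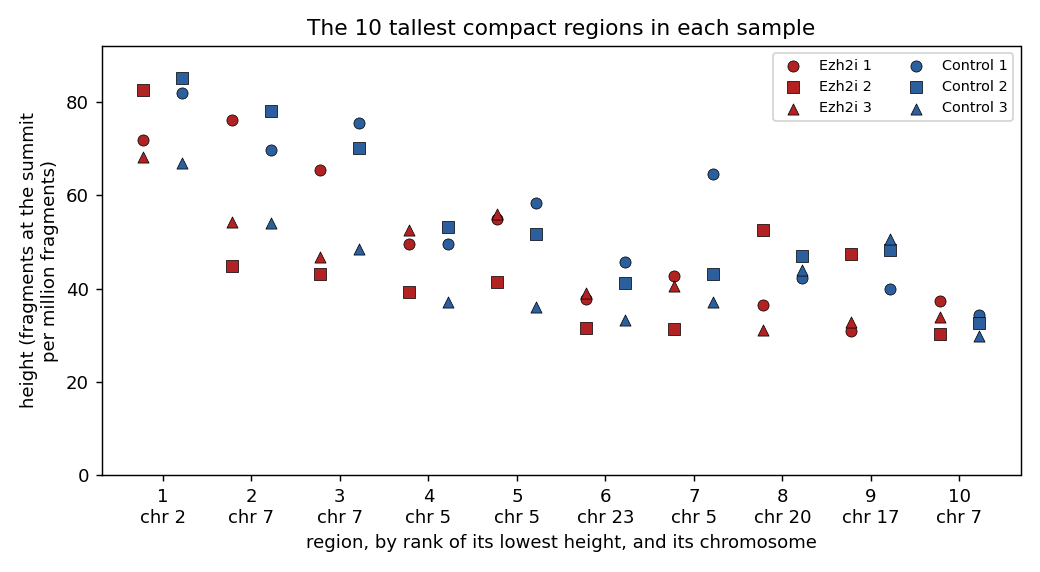
Height of the 10 tallest compact regions, ranked from left to right by the lowest of their 6 heights, with the chromosome under each rank. Each point is 1 sample, with Ezh2i samples in red to the left of the controls in blue; at rank 1 the Ezh2i samples lie between 68.1 and 82.7 and the controls between 66.9 and 85.2, and the exposures overlap at each of the 10 regions.

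Heights chose the members, so their level is a description. Of the 483 regions, 106 had a lowest height between 15 and 16, 145 between 16 and 18, 108 between 18 and 20 and 94 between 20 and 25. Another 21 had a lowest height between 25 and 30, and 9 were above 30. The members closest to the threshold had lowest heights of 15.1, on chromosome 14 from 2233774, chromosome 17 from 329396 and chromosome 20 from 1196144. The regions closest below it had lowest heights of 14.99, 14.98 and 14.98, on chromosome 7 from 41014732, chromosome 18 from 20224888 and chromosome 21 from 34057494. At the last of these the other 5 samples reached 16.3 to 26.5, and control 3 alone kept it out.

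The median height of the members was 23.1, 20.0 and 22.8 in Ezh2i samples 1, 2 and 3, against 23.8, 22.4 and 18.5 in controls 1, 2 and 3. The group means of these medians were 22.0 ± 1.74 (SD, n = 3) in Ezh2i samples and 21.5 ± 2.75 (SD, n = 3) in controls, a difference smaller than either spread. Over the shared regions of the same chromosomes the median height was 4.06, 3.77 and 4.19 in Ezh2i samples, against 4.07, 3.89 and 3.20 in controls. Control 3 had the lowest height at 312 members and Ezh2i sample 2 at 113, whereas control 1 had the highest at 188.

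**Figure D2:**
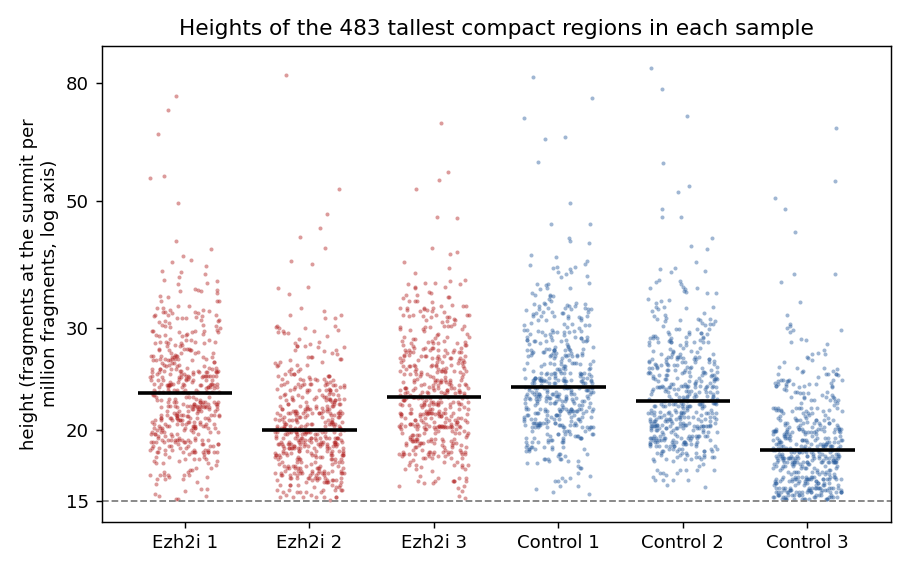
Height of all 483 regions in each sample, in fragments at the summit scaled to 1000000 fragments per library, on a log axis, with Ezh2i samples in red and controls in blue. Black bars are medians and the dashed line is the threshold of 15; the medians of Ezh2i sample 2 (20.0) and control 3 (18.5) are the lowest.

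Both libraries deviated together at most members. Ezh2i sample 2 and control 3 had the 2 lowest of the 6 heights at 303 members (62.7%), and at 6804 of the 29225 shared regions of the same chromosomes (23.3%). The mean log2 height of these 2 libraries minus that of the other 4 had a median of -0.27 over the members and -0.22 over the shared regions. The members thus had a similar median deviation with a narrower distribution, which ran from -0.51 to 0.0079 between the 5th and 95th percentiles of the members, against -0.72 to 0.29 in the shared regions. The members rest on more fragments, which also narrows this distribution and makes the same order of samples more frequent. The part of depth was not tested, and the 2 libraries were chosen after seeing the data. The deviation does not follow the exposures, since each exposure holds 1 of the 2 libraries. Results on heights are therefore also given without both.

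At 25 members (5.18%) the mean of these 2 libraries was above that of the other 4, against 22.8% of the shared regions, and the part of depth in this was not tested. The largest such excess, 0.39 on the log2 scale, was at the chromosome 17 region from 53383514 given above. At the next, on chromosome 17 from 46494056 to 46494181, the height was 18.7, 31.3 and 20.2 in Ezh2i samples, against 22.6, 25.7 and 25.4 in controls. This was one of 3 members with a median peak length under 150 bases. The 3 members on chromosome 10 between 16798524 and 16801263 were also among the 25. At the middle one, from 16800688 to 16800875, the height was 18.3, 28.8 and 16.3 in Ezh2i samples, against 22.9, 27.1 and 24.0 in controls. The local background of these 3 regions was 9.18 to 11.0 fragments and can hold fragments of the neighbouring members. At each of these 5 regions Ezh2i sample 2 was the highest of its group.

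**Figure D3:**
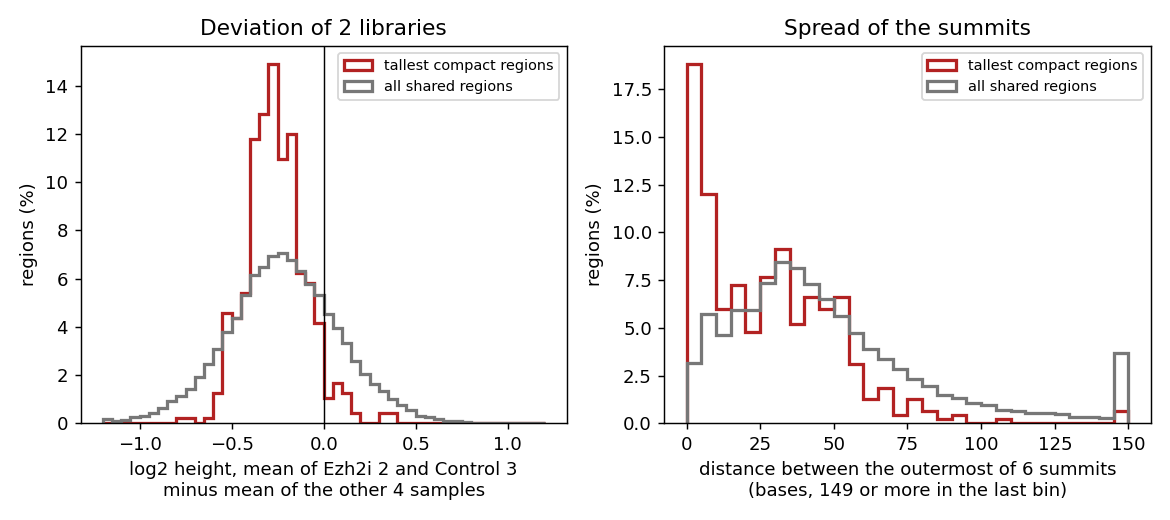
Left, the mean log2 height of Ezh2i sample 2 and control 3 minus the mean of the other 4 samples, as the percentage of regions per bin; the tallest compact regions (red) centre on -0.27 and the shared regions of the same chromosomes (grey) on -0.22. Right, the distance in bases between the outermost of the 6 summits of a region; 154 of the 483 tallest compact regions (31.9%) lie at 10 bases or less, against 9.77% of the shared regions.

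To compare the exposures, log2 heights of all 30071 shared regions were quantile-normalized, which sets the distribution of heights equal in all samples, and fitted with limma. No member passed a Benjamini-Hochberg adjusted p-value of 0.05, as did none of all regions tested (0%). The study tested read counts with edgeR and reported differential peaks at transcription start sites, mostly more open in the exposed embryos. Coverage at a single base, in regions with a peak in every list, is a different measure, so that result was not retested here. The smallest adjusted p-value of a member was 0.812 in limma. Without adjustment 0 members had a limma p-value under 0.05, against 6.24% of all regions (3.19% higher and 3.05% lower in Ezh2i samples). The limma fit draws each variance towards a value common to all regions. After quantile normalization the members varied less within an exposure than the shared regions of the same chromosomes, with median SDs of 0.12 and 0.26. The count of 0 therefore cannot show that members changed less than other regions. With a variance prior that follows the height (limma with a trend), the median standard error of the members was 0.11, against 0.18 without it. In that fit 50 members (10.4%) had an unadjusted p-value under 0.05, against 6.51% of all regions. Of these 50, 21 were higher and 29 lower in Ezh2i samples, where 3.29% of all regions were higher and 3.23% lower, and the smallest adjusted p-value of a member was 0.699.

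The log2 differences of the members were small in this fit. Quantile normalization equalizes the tallest heights of the samples, so it holds the median of the members nearly level. The SD of that median within an exposure was 0.0091, against 0.16 with heights scaled only to library size. Regions of equal rank in different samples also get the same value. On chromosome 2 from 14676090 this value was 8.92 in every sample except Ezh2i sample 1, at 8.85. The fitted difference there cannot register a change in height that leaves the ranks equal. Scaled only to library size, the log2 difference at that region was -0.069. The median difference of the members was -0.026, against -0.0012 over all regions. The 5th and 95th percentiles were -0.24 and 0.20 over the members, against -0.43 and 0.43 over all regions. The members rest on more fragments than most regions, which also narrows this range, and the part of depth was not tested. The difference was positive at 196 members and negative at 287. This split followed the scaling, with 269 positive and 214 negative when scaled only to library size. Centred on the median of each sample, 80 were positive and 403 negative. The share over all regions was not counted. All 3 Ezh2i samples were higher than all controls at 29 members and lower at 48, together 77 (15.9%), where 11.1% of all regions had groups that did not overlap (5.69% higher and 5.39% lower). In heights scaled only to library size the number was 19 (3.93%), 12 higher and 7 lower, against 11.5% of all regions (9.65% higher and 1.9% lower). With each sample centred on its median over all regions it was 105, 5 higher and 100 lower, against 11.1% of all regions (5.2% higher and 5.93% lower). Without Ezh2i sample 2 and control 3, a choice made after seeing the data, 2 samples against 2 did not overlap at 217 members (44.9%), against 35.5% of all regions.

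The sign of the median depended on the scaling. With heights scaled only to library size the median difference of all regions was 0.12 and that of the members 0.015. With each sample centred the members had -0.12 and all regions -0.012. The median of the members minus that of all regions was -0.11 on the log2 scale with heights scaled to library size, which centring cannot change, and -0.025 under quantile normalization. In each sample the median height of the members was also divided by that of the shared regions. The ratio was 5.69, 5.29 and 5.44 in Ezh2i samples, against 5.83, 5.76 and 5.77 in controls, with means of 5.48 ± 0.20 and 5.79 ± 0.039 (SD, n = 3 each). These groups did not overlap, but both medians were whole numbers of fragments before scaling. A single fragment more or less in the median of the shared regions moves a ratio by more than the gap between 5.69 and 5.76. The ratio is a score over regions chosen by height, so it is given with no test.

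**Figure D4:**
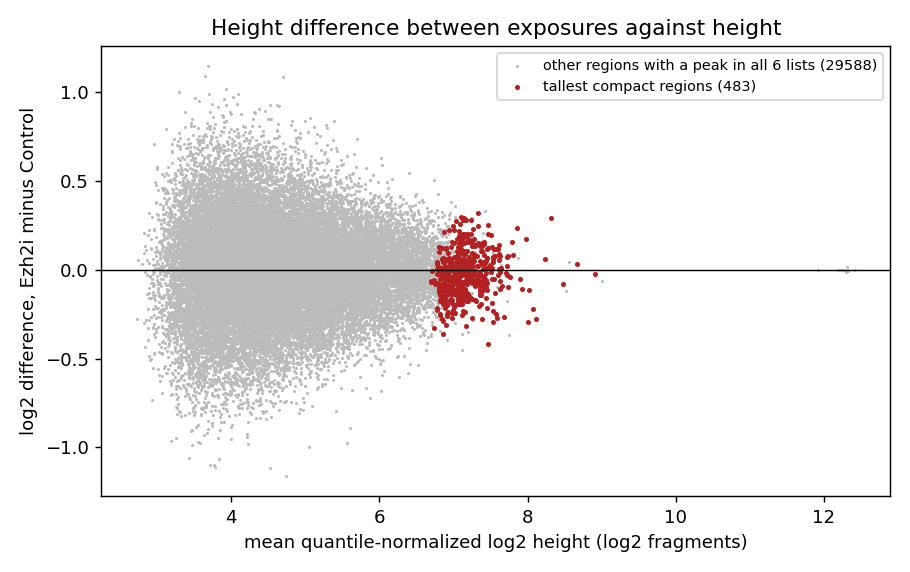
Log2 difference in quantile-normalized height, Ezh2i minus control, against the mean log2 height of each region. The 483 tallest compact regions (red) have a median difference of -0.026 and none passed an adjusted p-value of 0.05; the other shared regions are grey.

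The most positive differences were at 1 region on chromosome 7 and 2 on chromosome 13. On chromosome 7 from 8413747 to 8414021 the height was 27.5, 23.7 and 34.8 in Ezh2i samples, against 25.3, 26.2 and 16.6 in controls. The fitted log2 difference of 0.32 had a standard error of 0.20, with 0.839 as its adjusted limma p-value. On chromosome 13 from 50624069 to 50624408 the height was 27.5, 21.4 and 23.6 in Ezh2i samples, against 19.7, 23.1 and 15.1 in controls, with a log2 difference of 0.30 (standard error 0.19). At both, the exposures overlapped in height and did not overlap after quantile normalization. On chromosome 13 from 51887217 to 51887470 the height was 23.4, 24.8 and 25.3 in Ezh2i samples, against 21.0, 20.7 and 17.4 in controls. The exposures did not overlap on either scale at this region, where the fitted log2 difference of 0.29 had a standard error of 0.18, with 0.841 as its adjusted limma p-value. Without Ezh2i sample 3 the difference on chromosome 7 was 0.20, and with fold enrichment in place of height the 3 differences were 0.10, -0.012 and 0.073. Centred on the sample median, the last of them was 0.18. Fold enrichment divides the height by a background that can hold the same fragments, so it can shrink a height difference.

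The most negative difference was at the chromosome 7 region from 8305, at -0.42 with a standard error of 0.22 and 0.812 as its adjusted limma p-value. Its values, given above, overlapped between the exposures. On chromosome 3 from 23478147 to 23478487 the height was 16.7, 16.5 and 15.8 in Ezh2i samples, against 18.8, 24.3 and 18.03 in controls. On chromosome 10 from 29769981 to 29770269 it was 15.1, 15.2 and 15.2 in Ezh2i samples, against 17.8, 22.0 and 15.6 in controls. All Ezh2i samples were lower in height than all controls at these 2 regions, and after quantile normalization only at the one on chromosome 10, with log2 differences of -0.36 and -0.33 (standard errors 0.19 and 0.19, adjusted p-values 0.812 and 0.822 in limma). Without Ezh2i sample 3 the difference at the region from 8305 was -0.26, and with fold enrichment it was -0.22 there and -0.15 at the chromosome 10 region. None of these 6 differences is called, and the Ezh2i samples of the last region, at 15.1 to 15.2, lay just above the threshold that every member had to pass.

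The spread between replicates at the members was compared with what counting alone gives. The SD of log2 height, scaled to library size only, within an exposure had a median of 0.19 over the members and 0.29 over the shared regions. From the number of fragments, counting alone gives 0.12 for the median member and 0.29 for the median shared region. A median of SDs from so few samples tends to lie below the underlying SD, so the observed and the counting figures are not strictly alike. After quantile normalization the median SD was 0.12 in members and 0.26 in shared regions. The rule leaves out any region under 15 in a sample, which can lower the SD of the members. The part of this was not tested. The height of a typical member rested on 127 to 148 fragments per sample. Pearson correlations of log2 height between samples, over the 483 members, lay between 0.676 for Ezh2i sample 3 with control 3 and 0.877 for controls 1 and 2. Over the shared regions, which span a wider range of heights, they lay between 0.879 and 0.919.

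Summits of the members fell closer together than those of other regions. The outermost of the 6 summits were 26 bases apart in the median member and 40 in the median shared region. At 15 members the summit was the same base in all 6 lists, or 3.11%, against 0.246% of the shared regions. At 154 members it lay within 10 bases, or 31.9%, against 9.77%. A summit is also placed more exactly where more fragments overlap, and the part of depth in this was not tested. A single peak per list formed 480 of the members.

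Peak length was bounded above by the rule but not otherwise used. The members were compact only in this sense. Their median peak length of 269.5 bases exceeded the 166.5 bases of the shared regions. The median length of the members was 270, 272 and 271 bases in Ezh2i samples, against 267 bases in each control, and the exposures did not overlap in this value. Over the shared regions it was 176, 165 and 172 bases in Ezh2i samples, against 165, 166 and 159 bases in controls. In a limma fit of log2 length, which was not normalized, 0 members passed an adjusted p-value of 0.05 (0% of all regions), the smallest adjusted p-value of a member being 0.740. Without adjustment 4 members (0.828%) had a p-value under 0.05 in limma, 3 longer and 1 shorter in Ezh2i samples, against 6.27% of all regions (5.05% longer and 1.22% shorter). The groups did not overlap at 43 members, 35 longer and 8 shorter in Ezh2i samples, where all regions gave 11%, of which 8.6% longer and 2.41% shorter. Centred on the median length of each sample, 5 members were longer and 51 shorter without overlap, where all regions gave 10.8%, of which 4.19% longer and 6.6% shorter. The direction thus turned with the scaling in all regions as well as in the members.

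The largest length difference was on chromosome 20 from 53135565, where the tallest peak was 446, 478 and 494 bases long in Ezh2i samples, against 276, 392 and 231 bases in controls. It amounted to 0.69 on the log2 scale, with a standard error of 0.20 and 0.740 as its adjusted limma p-value. The chromosome 7 region from 8305 was shorter in Ezh2i samples, with 117, 110 and 106 bases, against 143, 127 and 122 bases in controls (log2 difference -0.23, adjusted p-value 0.794 in limma). Neither difference is called.

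The members stood in a higher local background than other regions. The peak caller took it from the same library, over up to the surrounding 10000 bases. It can thus hold the fragments of the peak itself and of neighbouring peaks. A taller peak adds more fragments to it, and the members were chosen by height. The part of this in the higher background was not tested. Its median was 2.93 fragments over the members and 0.777 over the shared regions. It exceeded 5 fragments, a limit set after seeing the data, at 46 members (9.52%), against 0.989% of the shared regions. The median fold enrichment was 36.5 in members and 13.5 in shared regions, a ratio that contains the height by which the members were chosen. The lowest fold enrichment of a member, a median of 9.95, was on chromosome 7 from 6428866 to 6429250, over a background of 10.5 fragments.

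The background was compared between the exposures in the same way as height. No member passed an adjusted p-value of 0.05 (0% of all regions), with 0.170 as the smallest adjusted p-value of a member in limma. Without adjustment 63 members (13.0%) had a p-value under 0.05 in limma, 8 higher and 55 lower in Ezh2i samples, against 9.67% of all regions, 5.26% higher and 4.41% lower. Groups did not overlap at 74 members, 9 higher and 65 lower, against 13.6% of all regions (6.99% higher and 6.57% lower). With each sample centred on its median in place of quantile normalization, 31 members were higher and 25 lower at a p-value under 0.05, together 56 (11.6%), against 10.8% of all regions (6.72% higher and 4.04% lower). Groups then did not overlap at 57 members (11.8%), 34 higher and 23 lower, against 21.9% of all regions (2338 regions higher and 4238 lower). The direction in the members thus turned with the scaling. Its balance also depended on Ezh2i sample 2. Without that sample, after quantile normalization, 35 members were higher and 55 lower at a limma p-value under 0.05. Together these were 90 (18.6%), against 14.0% of all regions (2266 regions higher and 1943 lower). With any other sample left out, 5 to 8 were higher and 43 to 69 lower, against 7.22% to 11.1% of all regions. In the main fit the smallest adjusted p-value was on chromosome 3 from 60033993 to 60034235. The background there, not scaled to library size, was 2.60, 2.62 and 2.64 fragments in Ezh2i samples, against 2.87, 3.07 and 2.96 in controls. The groups did not overlap. The log2 difference in background plus 1 was -0.13 on these values and -0.21 in the fit after quantile normalization (standard error 0.013).

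The members were spread over all 25 chromosomes in unequal numbers. Chromosome 3 held 38, chromosome 7 held 32, chromosome 10 held 31 and chromosome 16 held 30, whereas chromosome 9 held 6. As a share of the shared regions of a chromosome, the members ranged from 0.514% on chromosome 9 to 3.01% on chromosome 10. Within 1 Mb of the outermost region of a chromosome lay 76 members (15.7%), against 6.72% of the shared regions. Within 3 Mb there were 157 (32.5%), against 15.3%. The members on chromosome 3 from 62628377 to 62628487 and on chromosome 20 from 55168308 were themselves the last regions of their chromosomes.

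Another merged region lay closer than 1000 bases at 199 members (41.2%), against 31.8% of the shared regions, and closer than 200 bases at 55 (11.4%), against 10.5%. At 84 members (17.4%) no other region had its summit within 10000 bases, against 18.5%. Members lay less than 5000 bases from another member in 13 groups. Most were pairs, such as the pair on chromosome 10 from 43769736 to 43770480. The group of 4 on chromosome 7 and the group of 3 on chromosome 10 were the exceptions, and they also had the highest local backgrounds of the 13. A local background can hold fragments of the other members of the group, so a larger group can raise it. The part of this was not tested.

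No member lay in the 3 windows that the study draws around igfbp1a, bdnf and cebpa. These windows held only 3, 4 and 3 shared regions. With members at 1.61% of the shared regions, an absence from so few shows little. Igfbp1a encodes a binding protein of insulin-like growth factors, bdnf a neurotrophic factor and cebpa a transcription factor of fat and liver cells in mammals. The tallest shared region of those windows, in the one around cebpa on chromosome 7 from 38089513 to 38089712, had heights between 11.7 and 13.2 over the 6 samples. Near igfbp1a the tallest shared region reached 2.54 to 3.57, and near bdnf 2.80 to 6.87. From its read counts the study reported increased accessibility at igfbp1a and bdnf in exposed embryos, and no change at cebpa.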

How the data were processed

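ATAC-seq peak lists of 3 Ezh2i and 3 control samples were analysed, grouped by the sample descriptions. According to the study's methods and the file headers, the authors trimmed reads with Trim Galore, aligned them with Bowtie2 to GRCz11 within snakePipes, and called peaks in paired-end mode with MACS2 2.1.1.20160309 on each sample alone, at a q-value cutoff of 0.001 with 1 duplicate fragment kept. Fragment coverage was used, so a summit is the base most covered and not a Tn5 cut site.

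The pileup deposited by the authors is the signal (coverage) at the summit base, in whole fragments, and is no read count over a region, so the read-count test of the study could not be repeated and limma was used. Fold enrichment, as deposited, is a ratio in which 1 is added to pileup and to local background, and the background was solved from it. Of the deposited values, −log10 p-values and −log10 q-values entered no comparison. Lengths, summits and other positions are as deposited, counted from 1.

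Peaks were merged and described in Python 3.11.15 (pandas 2.3.3, numpy 2.4.6, matplotlib 3.10.9). Fits used limma 3.58.1 in R 4.3.3 over all 30071 shared regions, with no block for replicates and Benjamini-Hochberg adjusted p-values, and were tested on simulated data. The simulated heights had the same SD at every region, so they cannot test the fit at members, which vary less than other regions. The median pileup of a list was 15 or 16 fragments, which limits the precision at other regions more than at the members. Regions were named as the 10 tallest by lowest height, the 3 most positive and 3 most negative differences, those next to the threshold, and those in the windows drawn by the study. Other regions named for length, background, fold enrichment, position or a deviating order of samples were chosen after their values were seen. The members, lists and tests were chosen with earlier results of these data known. Gene groups and motifs were planned but not analysed here, as they need sequence or annotation of GRCz11. Alternatives covered scaling, fold enrichment, variance prior, a replicate block, missing peaks, low heights, each sample left out, and the limits of the rule.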

Additional observations from a re-analysis of the deposited data

How the results depend on the processing

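The number of members, 483, moved to 1082 with a height of 12 and to 124 with a height of 20 in every list, and lay between 484 and 710 with 1 sample left out, 710 being without control 3. The other alternatives gave 444 to 615. No member was called in the 15 alternatives run for height or in the 9 each run for length and background. The members under other limits of the rule were only counted. Among all regions 121 were called for height when regions found in 3 or more lists were included, and none of them was a member. In that fit a missing height was filled with the lowest pileup of its list, 5 fragments. How many of the 121 rest on filled heights was not counted. The count of members without overlap between exposures moved from 77 to 19 with heights scaled only to library size and to 217 without Ezh2i sample 2 and control 3, and lay between 103 and 157 with 1 sample left out, 157 being without Ezh2i sample 2, where all regions gave 18.7% to 23.8%. The median difference of the members was 0.015 scaled only to library size, -0.12 centred on the median, -0.052 with fold enrichment, -0.0074 without both low libraries, and -0.041 to -0.015 with 1 sample left out. Members at an unadjusted p-value under 0.05 numbered 50 with a trend in limma and at most 5 otherwise, 5 (1.04%) being without Ezh2i sample 2, where all regions gave 7.86%. The fits without a trend drew the variances towards a common value, as in the main fit.

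The 16 regions with named differences kept their direction in 175 of 192 values from the 12 alternatives that can move a difference. This count overstates the agreement. The alternative that included regions missing from some lists left most of these differences unchanged. Chromosome 7 from 8413747 moved only from 0.3222 to 0.3228. At chromosome 2 from 14676090 the value without Ezh2i sample 1 was -1.1e-15, set by equal ranks, and was counted as kept. The most positive and most negative differences were chosen for their size in these data, so a turn is less likely. Fold enrichment also moves with the background, which can hold fragments of the same peak. With fold enrichment the sign turned at chromosome 2 from 14676090 (0.021), chromosome 5 from 2721637 (-0.072) and 2810281 (-0.052), chromosome 7 from 12065604 (-0.24) and chromosome 13 from 50624069 (-0.012). Centred on the median it turned at chromosome 5 from 2721637 (-0.11) and 2810281 (-0.059) and chromosome 7 from 5671 (-0.36) and 12065604 (-0.065). Centred on the members, a setting chosen after seeing the data, it turned at 2721637 (-0.013) and 5671 (-0.26), and scaled only to library size at 5671 (-0.22). With 1 sample left out the difference lay between -0.033 and 0.14 at 2721637, -0.15 and 0.17 at 5671, and -0.40 and 0.10 at chromosome 20 from 4608800.

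With the replicate number as a block, 0 members were called and 0 had an unadjusted p-value under 0.05, against 5.98% of all regions. That fit has the limit of the main fit, a variance drawn towards a value common to all regions. Same-numbered samples did not deviate together over all regions, with correlations of 0.098, -0.029 and -0.12, or over the members, with 0.21, -0.026 and -0.25. Ezh2i sample 2 correlated best with control 3 (0.19 over all regions and 0.36 over the members). The numbers were therefore not taken to pair the samples, and whether any samples share a batch is not given in the sources used here.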

Other observations

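The 13 regions left out for a long peak were as tall as the members. The longest of their peaks had between 503 and 978 bases, and their lowest heights lay between 15.8 and 26.7. On chromosome 16 the region from 25921072 to 25922082 was the longest of them. On chromosome 1 from 54971967 to 54972706 the heights were 26.7 to 35.6 over the 6 samples, which would rank among the 30 tallest members. Within the members, height and length were nearly unrelated (Pearson r = 0.025 and Spearman rho = 0.095 over 483 regions, given as a description across regions of the same 6 libraries). The rule limits both height and length, which narrows any relation between them. The median peak length was 269.5 bases in members, against 166.5 in the shared regions of the same chromosomes. The height difference and the background difference between exposures went together (Pearson r = 0.773 and Spearman rho = 0.767), and both contain the fragments of the same peak.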
